A study of Homo sapiens with 4 samples.

Results

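A set of 40 genes of protein folding and degradation in the endoplasmic reticulum (ER) were followed in naive and arsenic trioxide (ATO) resistant NB4 cells. They were chosen by name, as the probes whose gene name on the array is one of the 40, which gave 68 of the 41000 probes and 40 of the 30811 gene names on the array. NB4 is an established human cell line of acute promyelocytic leukemia, and the resistant line is 1 clone derived from it in-house, written as NB4-VM-AsR1 in the labels and as NB4-EV-AsR1 in the methods. Naive NB4 cells served as the control. Both lines were cultured in RPMI medium with 10% FBS, the resistant clone without ATO for the last week, so that none of the 4 cultures is described as being under ATO when it was sampled. Each line was grown in 2 independent flasks, and the total RNA of every flask went, with the dye Cy3, onto an Agilent whole genome array of its own. The 4 arrays shared 1 slide with the naive flasks in the first positions, and position on the slide and line cannot be told apart.

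The ER is where secreted and membrane proteins enter the secretory pathway. They pass through the SEC61 channel, lose their signal peptide to the signal peptidase, and are folded by chaperones and by enzymes that form disulfide bonds, while proteins that fail to fold are trimmed, drawn back across the membrane and destroyed by the proteasome (ER-associated degradation, ERAD). The sensors in the ER membrane, IRE1 (ERN1), PERK (EIF2AK3) and ATF6, start the unfolded protein response (UPR), which through XBP1 and ATF6 raises the transcription of many of these genes and through PERK and ATF4 that of DDIT3. Promyelocytes make large amounts of granule proteins that pass through this pathway.

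Levels are given as the log2 of the processed signal minus the 75th percentile of its array, so that 0 is the 75th percentile and a difference of 1 is a 2-fold difference. A level is only compared with the same probe on another array. Between 27922 and 28244 probes per array were well above background, and 457 to 565 were saturated. The naive flasks differed more from each other than the resistant flasks did. Over all probes tested the log2 difference had an SD of 0.713 for the naive pair and 0.371 for the resistant pair. After the same shift, the median level of 6 Agilent spike-in controls lay at -1.31 in naive flask 1, -0.24 in resistant flask 1 and -0.27 in resistant flask 2 relative to naive flask 2, and the part of this gap in the results was not tested. Of 9 myeloid markers, 8 were well above background on all 4 arrays, among them MPO, while the erythroid marker HBB and 3 of 3 stromal collagens were below it on all of them. The T cell markers CD3D and CD3G were above background on the naive arrays only, and both epithelial markers, EPCAM and KRT8, were above it on all 4.

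Sites for the UPR factors were looked for in the promoters. The members were chosen by function, and the UPR raises the transcription of many of them. The counts of sites are therefore not independent of that choice. RefSeq (GRCh38.p14) gave a window from 250 bases before to 50 bases after the gene start for 36 of the 40 genes, with ERO1LB and ERO1L found under their present names ERO1B and ERO1A. PDIA3, DERL1, DERL3 and SPCS1 had no entry. The ER stress response element (ERSE) is spelled CCAAT, then 9 bases of any kind, then CCACG, and was searched on both strands. It was found in 6 of these 36 genes and in 25 of the 27305 genes with a window (0.0916%). The 6 sites are shown in capitals with 6 flanking bases on each side, 5′ to 3′ on the strand of the gene, beside that of HSPA5 (BiP), the main chaperone of the ER, which is not one of the 40 genes.
CALR: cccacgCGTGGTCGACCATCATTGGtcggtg
CANX: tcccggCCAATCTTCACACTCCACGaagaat
CRELD2: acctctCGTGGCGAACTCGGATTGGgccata
ERO1LB: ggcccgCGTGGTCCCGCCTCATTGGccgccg
PDIA6: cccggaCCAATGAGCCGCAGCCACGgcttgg
XBP1: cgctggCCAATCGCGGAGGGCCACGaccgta
HSPA5: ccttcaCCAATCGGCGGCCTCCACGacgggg
In CALR, CRELD2 and ERO1LB the element runs against the gene and reads as its reverse complement. It began 243 bases before the start in ERO1LB, 225 in CALR, 86 in PDIA6, 80 in CRELD2 and 52 in XBP1, and in CANX it spanned the start.

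The shorter ERSE-II is spelled ATTGG, then 1 base of any kind, then CCACG. This element was found in 3 members and in 19 of the 27305 genes with a window (0.0696%). It is shown in capitals in the same way, with both sites of HYOU1.
HERPUD1: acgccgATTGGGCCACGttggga
HYOU1 site 1: ccgtgaCGTGGTCCAATcccagg
HYOU1 site 2: ctgggaCGTGGTCCAATgagtac
SDF2L1: cggaagCGTGGACCAATcaaaac
The UPR element, spelled TGACGTGG, was found in 4 members (HYOU1, SSR3, SSR4 and VCP) and in 253 of the 27305 genes (0.927%). That of HYOU1 overlaps its ERSE-II. These matches describe the letters of the windows, and binding was not measured.

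**Figure D1:**
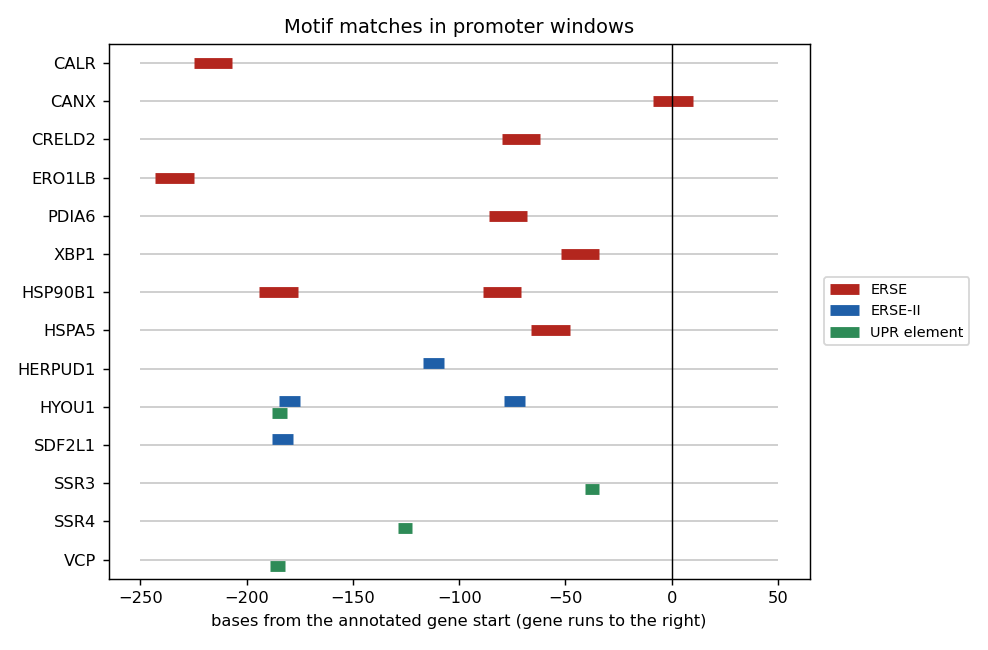
Positions of exact matches to the 3 motifs in the promoter windows, in bases from the annotated gene start, for the members with a match and for HSPA5 and HSP90B1. Grey lines are the windows, and ERSE matches lie within 100 bases before the start in CRELD2, PDIA6, XBP1 and HSPA5 and farther away in ERO1LB and CALR. HSP90B1 has ERSE matches that begin 89 and 194 bases before the start, and that of CANX spans the start.

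The first comparison asked which of the 40 genes differed between the naive and the resistant line. One gene rose in the resistant cells, ERO1LB, an oxidase that hands oxidizing equivalents to the protein disulfide isomerases. No member passed the test as lower. In bulk RNA a change in some of the cells and a change in each cell cannot be told apart. For each gene the brightest probe over the 4 arrays was taken, and it was called changed at an adjusted p below 0.05 from limma and a change of at least 2-fold. This left 1 of 39 tested members called, where 5.43% of the 21173 genes tested on the array were called, 2.47% as higher and 2.96% as lower. WFS1, a calcium regulator of the ER membrane, could not be tested. It lay at -6.63 and -6.33 in the naive flasks and at -6.32 and -6.01 in the resistant flasks, and was above background on 1 resistant array only.

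The changes of the 39 tested members ranged from -0.70 to 2.37 on the log2 scale with a median of 0.16, where the median over all genes tested was -0.013. Of the 39, 28 were above 0 and 11 below, where 10337 of the 21173 genes tested were above 0. At least 2-fold changes were seen in 3 (12.6% of all genes tested), namely ERO1LB, DERL3 and CRELD2. The flasks of the lines did not overlap in 11 members that were higher in the resistant line (25.2% of all genes) and in 4 that were lower (28.2%). In 26 members the gap between the naive flasks was larger than the change between the lines, as it was in 53.7% of all genes. Without naive flask 2 the median of the members was 0.0098, with 21 above 0 and 18 below. Under normexp the median of the members was 0.064, below the 0.13 of all probes tested. With 2 flasks per line an exact two-sided permutation test of a single gene cannot go below p = 0.333, and the calls depend on the variance shared across probes in limma.

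**Figure D2:**
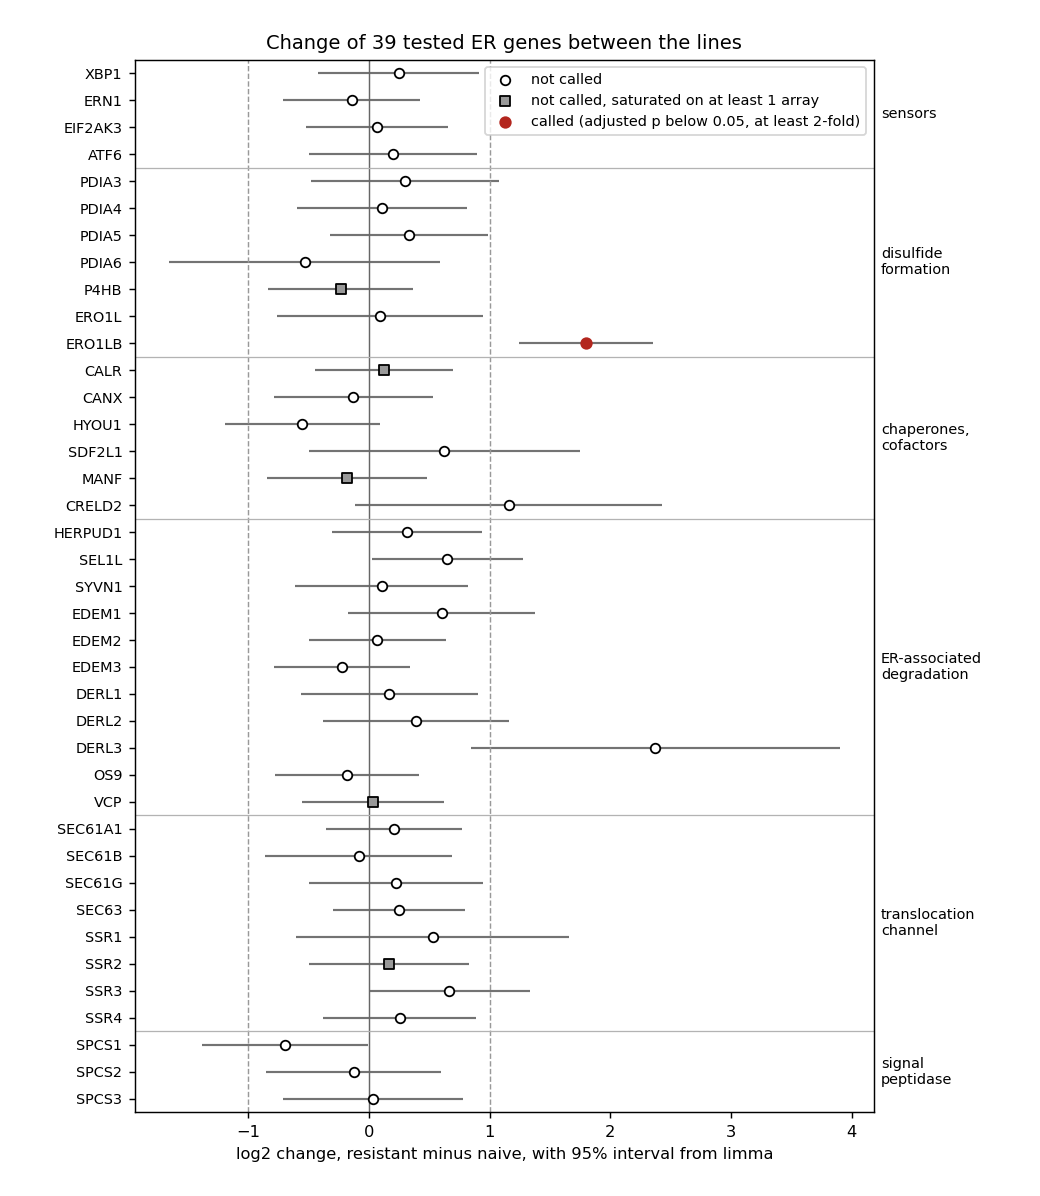
Log2 change (resistant minus naive) of the 39 tested genes by role, with the 95% interval from limma. Dashed lines mark 2-fold, ERO1LB at 1.80 is the only gene called, and grey squares are the 5 genes saturated on at least 1 array.

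Of the sensors and their factor, none passed the test. XBP1, the factor made active by IRE1 through splicing of its mRNA, lay at 5.24 and 4.84 in the naive flasks and at 5.15 and 5.44 in the resistant flasks. These levels overlap, and the log2 change was 0.25 (standard error 0.26, 95% interval -0.42 to 0.92, adjusted p = 0.657 from limma). The arrays measure the summed mRNA at the probe and not the splicing. On their brightest probes ERN1, EIF2AK3 and ATF6 had log2 changes of -0.14, 0.07 and 0.20. On these probes the flasks of the lines overlapped for each gene. The other ERN1 probes had log2 changes of -0.35 and -0.57 (adjusted p = 0.513 and 0.343 from limma). On both of them the resistant flasks were below the naive ones. The other probes of XBP1 and ATF6 had log2 changes of -0.07 and 0.10, with overlapping flasks. By their brightest probes the 4 genes together spanned -0.14 to 0.25, with intervals that reach at most 0.92.

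Among the genes of disulfide formation, ERO1LB was the one that rose. Its brightest probe (hg19 chr1:236379483-236379542, minus strand) lay at -4.18 and -4.06 in the naive flasks and at -2.28 and -2.36 in the resistant flasks. Both resistant flasks were far above both naive flasks, and the flasks of one line differed little. The mean rose from -4.12 ± 0.09 (SD, n = 2) to -2.32 ± 0.05 (SD, n = 2) (log2 change 1.80, standard error 0.22, 95% interval 1.24 to 2.35, adjusted p = 0.0128 from limma) or 3.48-fold. The second probe lay at -5.97 and -5.67 in the naive flasks and at -3.29 and -3.33 in the resistant flasks (log2 change 2.51, standard error 0.23, adjusted p = 0.00525 from limma). The third (hg19 chr1:236381733-236381792) did not rise clearly over background in either naive flask and was at least 3.82-fold higher in the resistant line (adjusted p = 0.0111). This probe entered the test only through the resistant line, where it was high, and its call adds no support. Over all probes of the 40 genes, 3 of 67 tested were called, all of ERO1LB, where 5.27% of all probes were called. The change kept its sign in all 19 alternatives, with log2 changes from 1.03 to 2.12. The call was lost under the normexp background correction (log2 change 1.03), under the methods' t-test after adjustment, without resistant flask 1 (adjusted p = 0.150) and without resistant flask 2 (0.135).

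The 250 bases before the gene start of ERO1B (ERO1LB on the array; GRCh38.p14 chr1:236281959-236282208, minus strand, from RefSeq) are given because this gene passed the test, with the ERSE in capitals.
ERO1B: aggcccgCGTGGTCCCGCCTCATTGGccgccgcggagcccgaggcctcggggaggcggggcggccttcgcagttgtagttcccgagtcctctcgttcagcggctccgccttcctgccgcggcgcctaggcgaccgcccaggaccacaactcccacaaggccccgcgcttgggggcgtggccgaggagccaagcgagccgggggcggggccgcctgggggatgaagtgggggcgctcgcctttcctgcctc
The other 5 members with an ERSE were not called.

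Its paralog ERO1L, the more widely expressed of the pair, lay at 2.17 and 1.34 in the naive flasks and at 1.94 and 1.75 in the resistant flasks. The resistant levels lay between the naive ones, and the log2 change was 0.09 (standard error 0.34, 95% interval -0.76 to 0.95, adjusted p = 0.913 from limma). A difference in change between the paralogs was not tested. The protein disulfide isomerases, which form and rearrange disulfide bonds, were not called. Their log2 changes ran from -0.53 in PDIA6 through -0.23 in P4HB, 0.11 in PDIA4 and 0.30 in PDIA3 to 0.33 in PDIA5. P4HB was saturated on at least 1 array. The 3 probes of PDIA3 are placed by the array on chromosome 1 of hg19, while RefSeq has the gene on chromosome 15, so that a near-identical copy may share their signal. PDIA6 lay at 4.95 and 3.72 in the naive flasks and at 3.95 and 3.65 in the resistant flasks, so that naive flask 1 stood above the other 3. The log2 change of PDIA6 was -1.15 without naive flask 2 and 0.08 without naive flask 1. A fit with 1 naive array takes its spread from the resistant flasks, so for such fits only the change of a gene is given.

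**Figure D3:**
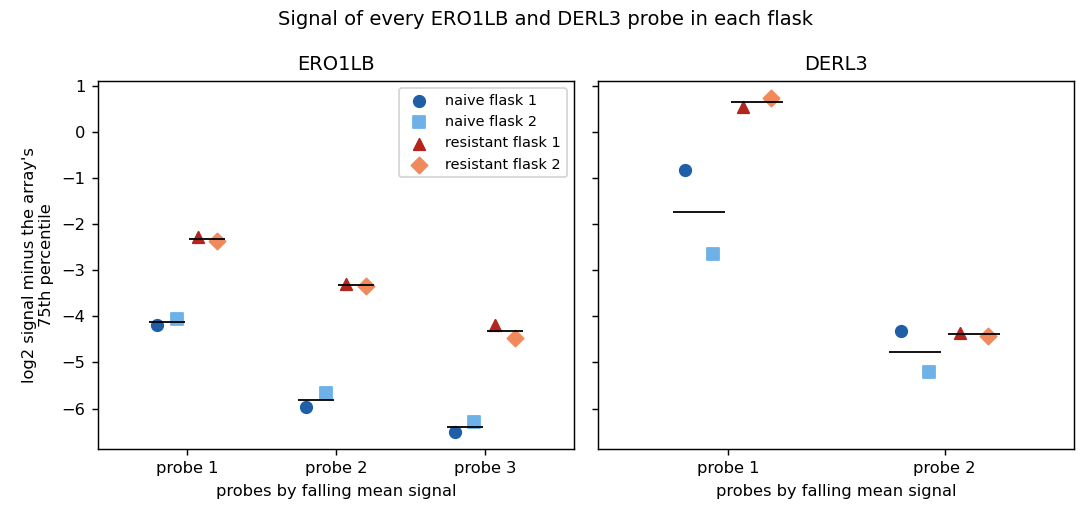
Log2 signal relative to the 75th percentile of the array for every probe of ERO1LB and DERL3 in each flask, with bars at the mean of each line. All 3 ERO1LB probes are higher in both resistant flasks, while DERL3 is higher on probe 1 and shows naive flask 1 level with the resistant flasks on probe 2.

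Chaperones and their cofactors had no called member and a median log2 change of -0.0019 over 6 genes. CRELD2, a secreted factor with isomerase activity that is induced by ER stress, lay at 3.40 and 1.92 in the naive flasks and at 3.85 and 3.80 in the resistant flasks. Both resistant flasks were above the naive ones, but the naive flasks were farther apart from each other (1.47) than the lines were (1.16). The test was not passed (standard error 0.50, 95% interval -0.11 to 2.43, adjusted p = 0.299 from limma). The log2 change of CRELD2 was 1.90 without naive flask 1 and 0.42 without naive flask 2. Its 250 bases before the gene start (GRCh38.p14 chr22:49918384-49918633, plus strand, from RefSeq) are given as those of the member with an ERSE that differed most between the naive flasks, with the element in capitals.
CRELD2: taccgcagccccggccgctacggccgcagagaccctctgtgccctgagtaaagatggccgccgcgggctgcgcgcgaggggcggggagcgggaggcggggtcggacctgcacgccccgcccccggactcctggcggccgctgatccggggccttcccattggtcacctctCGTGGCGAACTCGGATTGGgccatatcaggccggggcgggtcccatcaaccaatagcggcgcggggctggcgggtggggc

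SDF2L1, a cofactor of BiP, had the same order of flasks in the naive line, at 5.11 and 3.87, with 4.99 and 5.24 in the resistant flasks. Here the resistant flasks lay around naive flask 1, and the log2 change was 0.63 (standard error 0.44, adjusted p = 0.501 from limma). Without naive flask 1 it was 1.24, and without naive flask 2 it was 0.01. HYOU1, a large chaperone that exchanges the nucleotide of BiP, had the opposite sign, at 0.07 and -0.05 in the naive flasks and -0.32 and -0.75 in the resistant flasks. These do not overlap, and the log2 change of -0.55 did not pass the test (95% interval -1.20 to 0.10, adjusted p = 0.328). The lectin chaperone CANX differed by -0.13 on the log2 scale on its brightest probe, where the flasks of the lines overlapped. Its second probe differed by -0.40 (adjusted p = 0.45 from limma), with both resistant flasks below the naive ones. The soluble counterpart of CANX, CALR, and the secreted factor MANF were saturated on at least 1 array.

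ER-associated degradation had 11 tested members, of which none was called, 9 lay above 0 and 2 below, with a median log2 change of 0.17. DERL3, a membrane protein through which substrates leave the ER and which is known from secretory cells, had the highest fitted change of the 40 genes. Its probe 1 (hg19 chr22:24178981-24179040, minus strand) lay at -0.82 and -2.65 in the naive flasks and at 0.54 and 0.74 in the resistant flasks. The resistant flasks were close together and above both naive flasks, which were 1.83 apart. At 2.37 its log2 change was not called (standard error 0.60, 95% interval 0.85 to 3.90, adjusted p = 0.112 from limma). It was called under scale normalization (2.49, adjusted p = 0.0177), under normexp with bright local backgrounds reset (1.92, adjusted p = 0.0494), without naive flask 1 (3.29, adjusted p = 0.000231) and without naive flask 2 (1.46, adjusted p = 0.00553). Probe 2 (hg19 chr22:24177376-24177435) differed less, with -4.33 and -5.22 in the naive flasks against -4.36 and -4.42 in the resistant flasks (log2 change 0.38, adjusted p = 0.606). Its paralogs DERL1 and DERL2 differed by 0.17 and 0.39 on the log2 scale.

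SEL1L, the partner of the ubiquitin ligase SYVN1 (HRD1), lay at -1.07 and -0.72 in the naive flasks and at -0.34 and -0.15 in the resistant flasks. The resistant flasks were above the naive ones on both of its probes, with log2 changes of 0.65 (95% interval 0.03 to 1.27, adjusted p = 0.245 from limma) and 0.86 (adjusted p = 0.318). EDEM1, which helps to pick out glycoproteins with trimmed mannoses, showed the same on its 2 probes. Its brighter probe lay at 0.73 and 1.29 against 1.84 and 1.39 (log2 change 0.61, adjusted p = 0.363) and the dimmer one at -0.81 and -1.20 against -0.06 and 0.10 (log2 change 1.03, adjusted p = 0.101). HERPUD1, an ER membrane protein of the ligase complex, lay at 4.34 and 4.72 in the naive flasks and at 4.83 and 4.87 in the resistant flasks, a log2 change of 0.32 (adjusted p = 0.54). None of these passed the test. SYVN1 itself, EDEM2, EDEM3 and the lectin OS9 had log2 changes of 0.11, 0.07, -0.22 and -0.18. On their second probes SYVN1, EDEM2 and OS9 had -0.34, -0.17 and -0.22. The resistant flasks were below the naive ones on those of SYVN1 and OS9. VCP (p97), the ATPase that pulls substrates out of the membrane, was saturated on its brightest probe. Its second probe lay at 5.16 and 4.45 in the naive flasks and at 4.19 and 4.15 in the resistant flasks (log2 change -0.64, adjusted p = 0.344 from limma). The third probe of VCP had a log2 change of -0.96, with no value in naive flask 2.

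**Figure D4:**
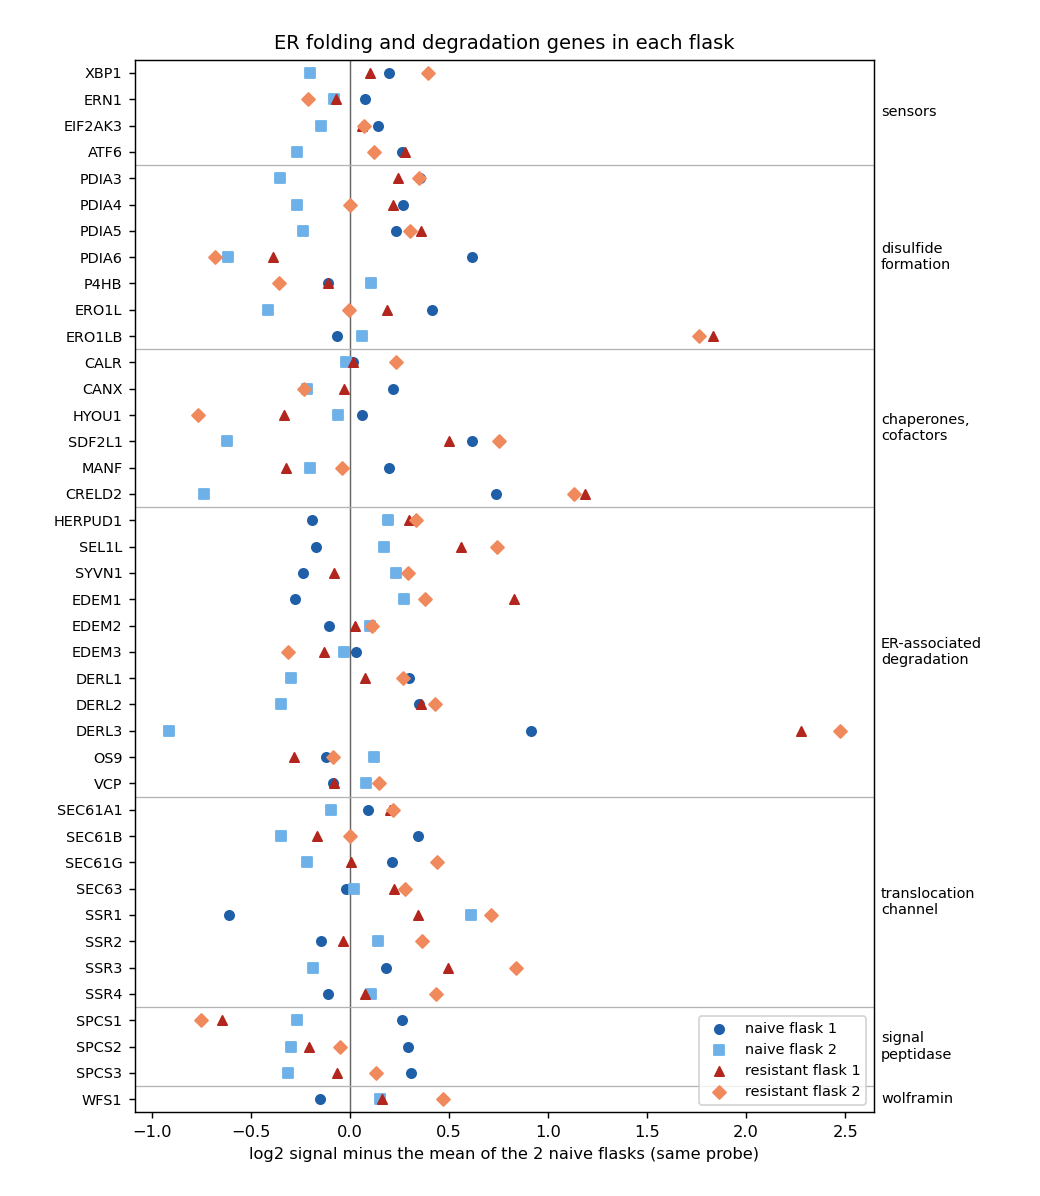
Log2 signal of the brightest probe of each of the 40 genes in each flask, relative to the mean of the 2 naive flasks, by role. ERO1LB and DERL3 have both resistant flasks to the right of both naive flasks by more than 1, and in PDIA6, SDF2L1, CRELD2 and DERL3 naive flask 1 (circles) lies to the right of naive flask 2 (squares) by more than 1.

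In the translocation channel and its associated TRAP complex (SSR1 to SSR4) the median log2 change over 8 genes was 0.24, and no gene was called. SSR3 had the highest change of these, at 1.12 and 0.76 in the naive flasks and 1.44 and 1.78 in the resistant flasks (log2 change 0.67, adjusted p = 0.263 from limma). The array places this probe on chromosome 1, while RefSeq has SSR3 on chromosome 3, and the probe placed there had a change of 0.25. SSR1 lay at -0.82 and 0.40 in the naive flasks and at 0.14 and 0.50 in the resistant flasks, with naive flask 1 below the rest. Its log2 change was 0.53 (adjusted p = 0.574 from limma), 1.14 without naive flask 2 and -0.08 without naive flask 1. Its other probe differed by 0.14. SEC61A1, SEC61B and SEC61G, the subunits of the channel, had log2 changes of 0.21, -0.08 and 0.22, and SEC63, a membrane cochaperone of BiP, had 0.25. SSR2 was saturated on its brightest probe and differed by 0.32 on the second (adjusted p = 0.581), and SSR4 differed by 0.26.

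The signal peptidase subunits were likewise not called. SPCS1 lay at 2.86 and 2.33 in the naive flasks and at 1.95 and 1.84 in the resistant flasks. Both resistant flasks were below the naive ones, with the lowest log2 change among the members, -0.70 (standard error 0.27, 95% interval -1.38 to -0.01, adjusted p = 0.256 from limma). SPCS2 and SPCS3 had log2 changes of -0.13 and 0.03, and the only SPCS2 probe is placed on chromosome 1, while RefSeq has the gene on chromosome 11.

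The second comparison was between the 2 flasks of one line, which the design holds as replicates. With 1 array on each side it has no test. The naive flasks differed in these genes, with naive flask 1 higher in 26 of the 39 tested members, where it was higher in 43.3% of all genes. Without the 5 saturated members it was higher in 24 of 34. The median log2 difference (naive flask 1 minus naive flask 2) was 0.37 over the members and -0.094 over all genes. Naive flask 1 was at least 2-fold higher in 4 members (4.05% of all genes), DERL3 by 3.55-fold, CRELD2 by 2.78-fold, SDF2L1 by 2.36-fold and PDIA6 by 2.35-fold. Naive flask 2 was at least 2-fold higher in 1 member (9.41% of all genes), SSR1, by 2.33-fold, which its other probe did not show (log2 difference 0.01). No member differed 2-fold between the resistant flasks, as 2.24% of all genes did.

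By role, naive flask 1 was higher in 4 of 4 sensors and factors, 5 of 7 genes of disulfide formation, 6 of 6 chaperones and cofactors and 3 of 3 signal peptidase subunits. It was higher in 4 of 8 genes of the translocation channel and 4 of 11 of ERAD, where SEL1L, EDEM1, HERPUD1 and SYVN1 were higher in naive flask 2. On its dimmer probe EDEM1 was higher in naive flask 1 (log2 difference 0.39 against -0.55 on the brighter one). A difference between roles was not tested. In the 9 members with an ERSE or ERSE-II the log2 difference between the naive flasks had a median of 0.40, a range of -0.38 to 1.47, and was above 0 in 7. In the 26 tested members with a window but neither motif the median was 0.17, the range -1.22 to 0.83, and 15 were above 0. The ranges overlap, and the 4 genes without a window had a median of 0.65. The median over the members stayed above 0, and 5 members differed at least 2-fold, under each of the 9 alternatives that apply to this comparison.

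**Figure D5:**
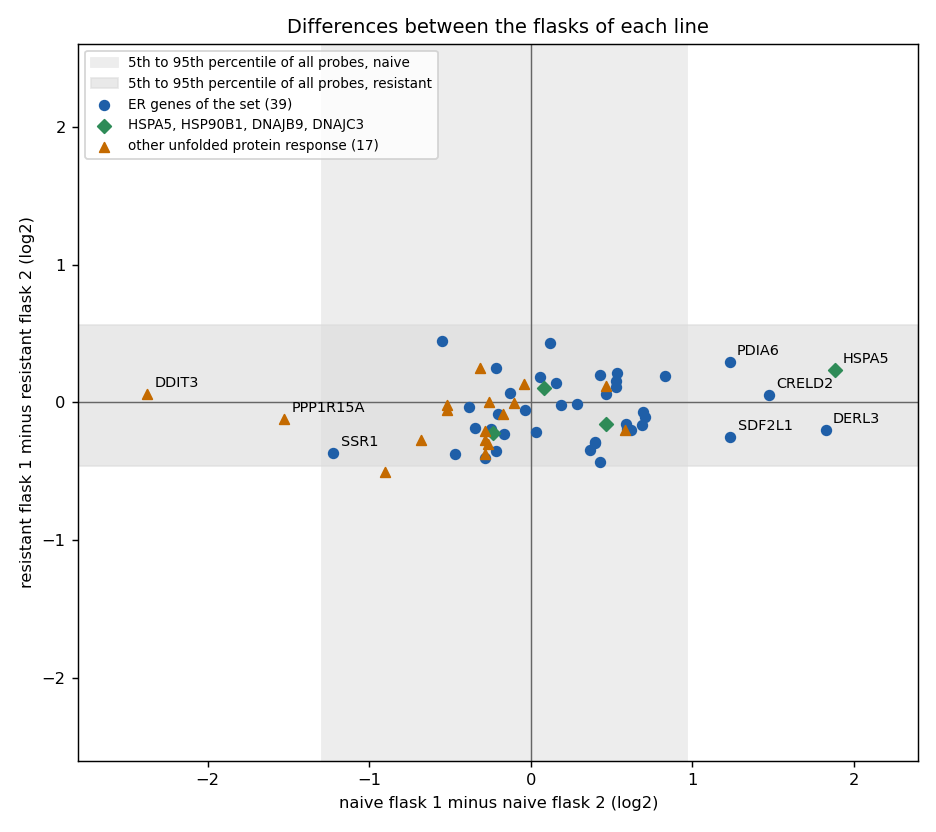
Log2 difference between the naive flasks against that between the resistant flasks, 1 point per gene, for the 39 tested members and 2 groups of other ER genes, with bands at the 5th to 95th percentile of all probes. The spread along the naive axis is wider, with PDIA6, SDF2L1, CRELD2, DERL3 and HSPA5 to the right of the naive band and DDIT3 and PPP1R15A to its left.

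The wider pathway was read from 5 lists of 110 further ER genes, of which 109 were on the array by name and 108 could be tested. Of these 2 were called higher and 1 lower, 3 of 108 where 5.43% of all genes were called (2.47% higher, 2.96% lower), with a median log2 change of -0.023. Other chaperones and foldases had 1 called of 30, other genes of the UPR 2 of 17, and other ERAD genes (21), genes of translocation, signal recognition and oligosaccharide transfer (21) and the coats of ER to Golgi transport (19) had none. FKBP9, an ER prolyl isomerase, fell from 1.08 and 0.57 in the naive flasks to -2.06 and -2.03 in the resistant flasks (log2 change -2.87, standard error 0.27, adjusted p = 0.00519 from limma). The call was lost under normexp (-2.14, adjusted p = 0.584) and under the methods' t-test after adjustment. A second probe was called lower too (log2 change -2.95, adjusted p = 0.00328). The other was at least 5.54-fold lower, but neither resistant flask gave it a signal clearly over background, and it entered the test only through the naive line. The array places these probes at 2 separate loci on chromosome 7 of hg19, so that a near-identical copy may share the signal.

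CREB3L4, a transcription factor of the ER membrane, lay at -0.87 and -0.35 in the naive flasks and at 0.89 and 0.91 in the resistant flasks. It rose (log2 change 1.51, standard error 0.27, adjusted p = 0.0429 from limma). Its call was lost in 8 of 19 alternatives. These were normexp (adjusted p = 1.00), quantile normalization (0.0578), no filter on dim probes (0.0869), only probes above background on all 4 arrays (0.0507), the methods' t-test after adjustment (0.291), the replicate number as a block (0.0561) and the omission of resistant flask 1 (0.284) or resistant flask 2 (0.316). NUPR1, a stress-induced chromatin protein, lay at -6.62 and -5.72 in the naive flasks and at -4.13 and -3.63 in the resistant flasks (log2 change 2.29, standard error 0.38, adjusted p = 0.0357). It was well above background on 1 naive array only, so that it entered the test through the line where it was high, and its call gives no separate support. The log2 change was 0.74 under normexp with or without the reset of bright backgrounds, and the call was lost in both, without the filter on dim probes (adjusted p = 0.0819), under the methods' t-test after adjustment, without resistant flask 1 (0.0781) and without resistant flask 2 (0.178).

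HSPA5 stood with CRELD2 and SDF2L1 in the naive flasks, at 3.94 and 2.06, with 2.75 and 2.52 in the resistant flasks. The resistant levels lay between the naive ones, which differed 3.69-fold, and the log2 change between the lines was -0.36 (standard error 0.62, adjusted p = 0.799 from limma). The log2 change of HSPA5 was -1.30 without naive flask 2 and 0.58 without naive flask 1. Its second probe differed by only 0.56 between the naive flasks. HSP90B1 (GRP94), saturated on its brightest probe, had 4.22 and 2.70 in the naive flasks and 3.40 and 3.53 in the resistant flasks on its second. The cochaperones DNAJB9 and DNAJC3 had log2 changes between the lines of 0.10 and 0.55, neither called.

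DDIT3 (CHOP), on the PERK branch, had the opposite order in the naive flasks, at -1.67 and 0.70, with -0.67 and -0.73 in the resistant flasks. It was 5.18-fold higher in naive flask 2. The log2 change between the lines was -0.22 (adjusted p = 0.907 from limma), -1.41 without naive flask 1 and 0.97 without naive flask 2. Of the 17 other genes of the UPR, 15 were higher in naive flask 2, as 56.7% of all genes were. Without genes saturated on any array these were 12 of 14, and among the chaperones and cofactors of the 40 genes 4 of 4 were higher in naive flask 1. Among the other ER chaperones and foldases 21 of 29 were higher in naive flask 1 and 8 in naive flask 2. Their median log2 difference (naive flask 1 minus naive flask 2) was 0.15, where that of the 4 was 0.83. Differences between the lists were not tested. PPP1R15A (GADD34), named after its values were seen, was 2.88-fold higher in naive flask 2. ATF4 was saturated on its brightest probe, and its second probe lay at 3.95 and 4.68 in the naive flasks and at 4.47 and 4.49 in the resistant flasks. Genes of the coats of ER to Golgi transport had the order of the chaperones and cofactors of the 40 genes. Naive flask 1 was higher in 18 of 18 that had a value on both naive arrays, with a median log2 difference of 0.53.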

How the data were processed

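Total RNA of 2 flasks per line was measured on 1-colour Agilent arrays. The authors used Feature Extraction 10.5.1.1 on the scans, and the processed signal they deposited is a linear intensity from which that software had taken the background and spatial trends. Their deposited log2 table, scaled to the 75th percentile, correlated with the values computed here (r across probes 0.9998 or higher on every array).

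Outlier spots were left out, the log2 signal was averaged over the spots of a probe, and each array's 75th percentile was taken off. Probes that both arrays of a line marked as well above background (28221) were tested in limma 3.58.1 (lmFit, eBayes; R 4.3.3), with Benjamini-Hochberg adjustment over all of them, and the script was tested on simulated data. Calls needed an adjusted p below 0.05 and a 2-fold change. "At least N-fold" is against each array's lowest signal that cleared the background, or the dim probe's own signal if that was higher. The number of arrays limits the precision. The 40 genes may all be named, of other genes those called and a list of 6. The members and lists were chosen with earlier results of these data known. Motifs were exact matches on both strands. Alternatives were normexp (offset 50) with and without resetting local backgrounds over 100, quantile, scale and median normalization, filters on dim and saturated probes, the deposited log2 table, an intensity trend, the methods' t-test, no minimum fold, the replicate block, each flask left out and the mean over probes of a gene. The slide was not a block, as there was 1.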

Additional observations from a re-analysis of the deposited data

How the results depend on the processing

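The array limits these results by its number of flasks, by saturation and by probes near background. The count of called member genes (1) became 0 under normexp and under the methods' t-test after adjustment, 2 under normexp with bright backgrounds reset and under scale normalization, and 0 to 4 with a flask left out (4 without either naive flask, 0 without either resistant flask). The median change of the members (0.16) became 0.34 under scale normalization and 0.0098 to 0.23 with a flask left out. Over all probes tested, the median moved from -0.020 to 0.13 under normexp, where that of the members was 0.064 and thus lower, and to 0.083 under scale normalization. The other ER genes called (3) became 0 under normexp and under the adjusted t-test, 1 without the filter on dim probes, 1 with only probes above background on all 4 arrays, and 1 to 8 with a flask left out. The 1487 probes called over the whole array became 0 under normexp (929 at an unadjusted p below 0.05) and under the adjusted t-test, 760 with probes above background on all arrays, and 728 to 4536 with a flask left out. With 1 array left in a line, its spread is assumed to be that of the other line.

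With the replicate number as a block, 1 member gene, 2 of the other ER genes and 1375 probes were called. Deviations of same-numbered flasks correlated at 0.119 over 2 pairs, too few to show that the numbers pair the flasks. CREB3L4 was the one call the block removed among the genes named.

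Of 908 log2 changes of 48 genes under 19 alternatives, 829 kept direction and side of the threshold and 49 changed sign. Under normexp these were ERN1 (0.0075), PDIA4 (-0.148), VCP (-0.138), SSR2 (-0.012), SSR4 (-0.020), HSP90B1 (-0.0087) and ATF4 (-0.018). With backgrounds reset they were PDIA4 (-0.076), VCP (-0.062) and SEC61B (0.017), under quantile normalization VCP (-0.0029) and ATF4 (-0.038), and under scale normalization CANX (0.050), MANF (0.042), OS9 (0.0098), SEC61B (0.129) and SPCS2 (0.054). VCP had -0.635 with saturated probes left out, and the mean over probes gave SYVN1 -0.115, EDEM2 -0.047 and VCP -0.301. With a flask left out, changes crossed 0 in PDIA6 (-1.15 to 0.084), CANX (-0.345 to 0.087), MANF (-0.381 to 0.019), SYVN1 (-0.127 to 0.341), EDEM2 (-0.032 to 0.174), VCP (-0.080 to 0.147), SEC61B (-0.428 to 0.261), SSR1 (-0.081 to 1.14), SPCS2 (-0.422 to 0.169), HSPA5 (-1.30 to 0.578), HSP90B1 (-0.105 to 0.127), ATF4 (-0.104 to 0.195), EIF2AK3 (-0.078 to 0.211), ATF6 (-0.066 to 0.464), PDIA3 (-0.056 to 0.651), PDIA4 (-0.156 to 0.378), ERO1L (-0.322 to 0.507), DERL1 (-0.127 to 0.469), SPCS3 (-0.276 to 0.345), DDIT3 (-1.41 to 0.967) and SSR2 (-0.035 to 0.365). The cause was not tested, except that leaving out a flask or a probe removes its values by construction.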
